A study of Caenorhabditis elegans with 2 samples.

Results

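The genes described here encode the short secreted peptides of C. elegans: the insulin-like peptides (ins), the FMRFamide-like peptides (flp) and the neuropeptide-like proteins (nlp). They were taken by name, as every protein-coding gene of the Ensembl WBcel235 annotation whose symbol starts with ins-, flp- or nlp-. That gave 140 of 19973 protein-coding genes on the 6 nuclear chromosomes, with 38 ins, 31 flp and 71 nlp genes. Other peptide genes, such as the insulin gene daf-28 and the neuropeptide gene pdf-1, fall outside the name rule.

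The regions come from ChIP-seq of an eGFP-tagged nuclear hormone receptor, NHR-237, in whole L2 larvae of mixed sex. The strain is OP228, which has the unc-119(ed3) allele on III and the integrated tagged transgene wgIs228. Both libraries are biological replicates of this 1 group, so the data hold no contrast between conditions. The tagged protein is made from a transgene insertion, and the cells that make it are not separated in a whole-larva sample.

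Each library has its own list of 30000 relaxed regions. A pooled list of 6542 regions was called on both libraries together, and the list filtered by irreproducible discovery rate (IDR), a measure of replicate agreement, keeps 350. A gene was counted as near a region when the summit, the highest point of the region, lay within 1000 bp of the 5′ end of the gene model. The signal is the authors' enrichment value for a region, and each list scales it differently, so levels were not compared between lists. Depth per library is unknown. Each list gives 1 value per region, so single regions have no SD, and the intervals below cover counting error in genes only.

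Insulin-like peptides act on the receptor DAF-2, whose pathway controls dauer entry, growth and lifespan through the transcription factor DAF-16. FMRFamide-like peptides and most neuropeptide-like proteins are cut from longer precursors in neurons, packed in dense core vesicles and sensed by G protein-coupled receptors. Some nlp genes, among them those of the nlp-29 cluster, encode antimicrobial peptides of the epidermis instead.

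A single peptide gene, ins-39, stood near one of the strongest regions of the whole list. The 3 stretches below are the 201 bp centred on the highest pooled summit of each family, shown so that the bases under these regions can be read. They are from the RefSeq WBcel235 genome (ce11), 5′ to 3′ on the strand of the gene. The ins-39 stretch is chrX:1344968-1345168 (minus strand), upstream of the gene and intergenic. The nlp-24 stretch is chrV:11616956-11617156 (plus strand), past the end of nlp-24 and in a coding exon of glb-15. The flp-14 stretch is chrIII:12910156-12910356 (plus strand), upstream of the gene and intergenic, and was added after its values were seen. Capitals mark matches to any of 7 motifs searched on both strands, of which the ins-39 stretch held 1 and the others none. The motifs are 8 bases of an X recruitment motif (GCGCAGGG), a GATA factor motif (TGATAA), a GA repeat (GAGAGAG), a KLF/SP type motif (CCGCCC) and 3 elements of nuclear receptor sites (AGGTCA, its variant AGTTCA and, as DAF-12 type, AGTGCA).
ins-39: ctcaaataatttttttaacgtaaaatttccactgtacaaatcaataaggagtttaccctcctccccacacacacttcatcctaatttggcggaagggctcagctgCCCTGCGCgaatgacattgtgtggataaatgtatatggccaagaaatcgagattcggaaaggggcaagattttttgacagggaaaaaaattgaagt
nlp-24: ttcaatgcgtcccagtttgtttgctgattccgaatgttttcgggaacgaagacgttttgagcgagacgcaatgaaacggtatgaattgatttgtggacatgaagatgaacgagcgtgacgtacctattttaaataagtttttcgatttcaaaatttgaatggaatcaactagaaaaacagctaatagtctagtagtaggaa
flp-14: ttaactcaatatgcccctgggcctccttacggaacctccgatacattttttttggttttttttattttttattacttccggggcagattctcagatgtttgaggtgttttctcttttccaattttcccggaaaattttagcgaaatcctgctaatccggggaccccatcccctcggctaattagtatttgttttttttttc

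Taken as a group, the peptide genes were near regions about as often as other genes. Of the 140, 19 (13.6%, exact 95% interval 8.37 to 20.4) were near a pooled region, against 15.8% of all protein-coding genes. The difference from all other coding genes was -2.25 percentage points, with a Newcombe 95% interval from -6.99 to 4.42. Near an IDR region were 2 genes (1.43%, interval 0.173 to 5.07), against 1.72% of all genes. The replicate 1 list reached 71 (50.7%, against 50.3%) and the replicate 2 list 76 (54.3%, against 49.3%). Regions of both lists stood near 43 (30.7%, against 28.8%). A replicate list thus reaches a large share of all coding genes. Between the replicate lists, 28 peptide genes had a region in replicate 1 alone and 33 in replicate 2 alone. At least 1 replicate list reached 74.3% of peptide genes, against 70.7% of all coding genes. The difference from other coding genes was 3.58 percentage points (Newcombe interval -4.27 to 10.1). With the shares for both lists also close, this split between replicates is not read as particular to peptide genes. No region of the pooled or replicate lists lay near 36 of the 140, and neither replicate list reached 5845 of all 19973 coding genes.

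Shares of the 3 families overlapped in each list. The ins genes had 6 of 38 near a pooled region (15.8%, exact interval 6.02 to 31.3), the flp genes 3 of 31 (9.68%, 2.04 to 25.8) and the nlp genes 10 of 71 (14.1%, 6.97 to 24.4). The ins share was above the flp share by 6.11 percentage points, with a Newcombe interval from -11.2 to 22.1. Between ins and nlp the difference was 1.70 points (-11.3 to 17.6), and flp stood -4.41 points from nlp (-16.2 to 12). All 3 intervals include 0 and are wide. In both replicate lists were 11 ins genes (28.9%), 8 flp genes (25.8%) and 24 nlp genes (33.8%). No flp gene was near an IDR region, which allows a share of up to 11.2% (exact 95% limit).

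Peptide genes are placed unevenly on the chromosomes. X carries 13.7% of all protein-coding genes but 13 of 31 flp genes (41.9%) and 19 of 71 nlp genes (26.8%), while 2 of the 38 ins genes are there (ins-39 and ins-9). Chromosomes I and II together carry 25 ins genes (10 and 15).

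X and autosomes did not differ detectably in the share of peptide genes near a region. On X 4 of 34 were near a pooled region (11.8%, exact interval 3.30 to 27.5) and on autosomes 15 of 106 (14.2%, 8.14 to 22.3). The difference was -2.39 percentage points (Newcombe interval -13 to 13.4). Over all coding genes the pooled list reached 14.5% on X and 16% on autosomes, a difference of -1.47 points (-2.86 to 0.0035). In replicate 1 the peptide genes reached were 17 of 34 on X (background 49.9%) and 54 of 106 on autosomes (background 50.4%). In replicate 2 they were 16 on X (47.1%, background 49.2%) and 60 on autosomes (56.6%, background 49.3%). Both replicate lists reached 11 peptide genes on X (32.4%, against 27.9% of all genes there) and 32 on autosomes (30.2%, against 29%). In the IDR list each class held 1 gene, which is 1 of 34 on X (background 0.952%) and 1 of 106 on autosomes (background 1.84%). The flp genes, the family with the most X genes for its size, had 1 of 13 near a pooled region on X and 2 of 18 on autosomes. For the nlp genes these counts were 2 of 19 and 8 of 52.

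**Figure D1:**
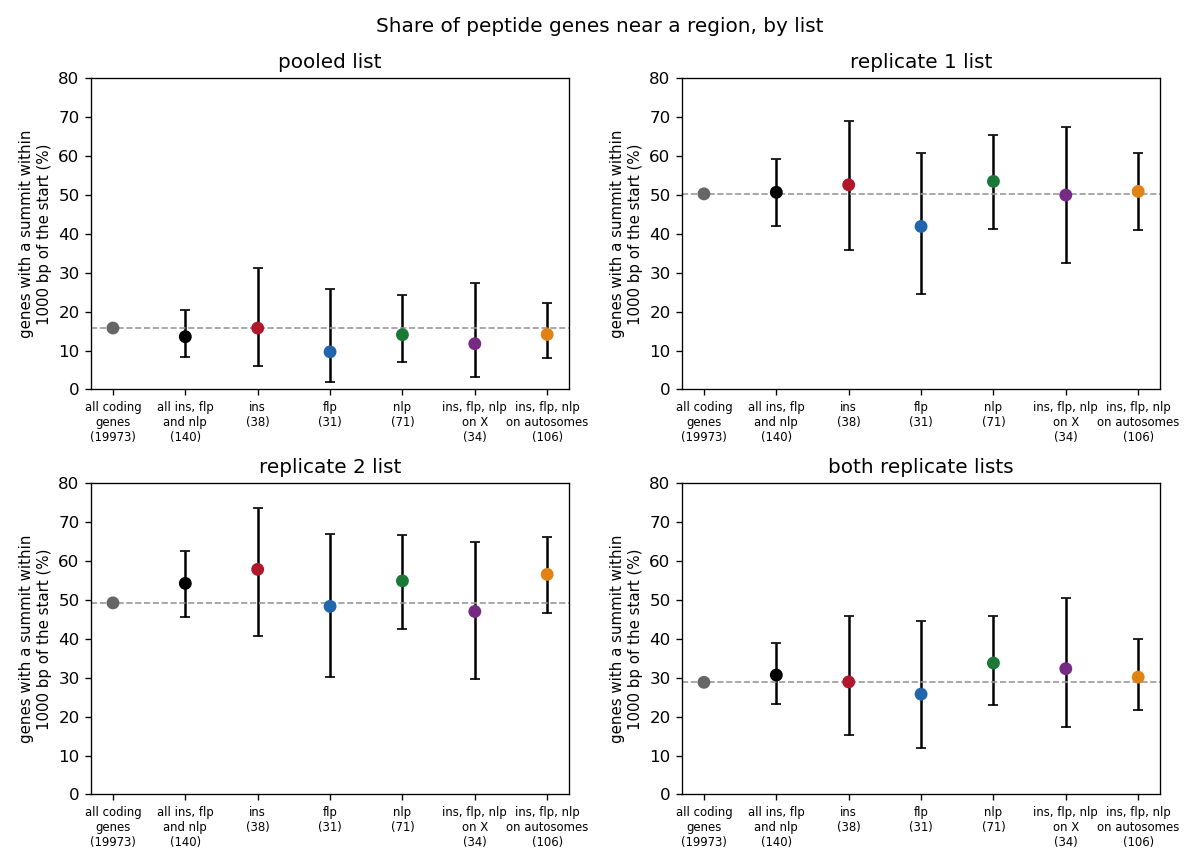
Percent of genes with a summit within 1000 bp of the start (vertical axis) in the pooled list, each replicate list and both replicate lists. Points are shares, bars are exact 95% intervals, numbers of genes are in parentheses, and the dashed line is the share of all 19973 coding genes. The line crosses the interval of every family and of both chromosome classes in all 4 panels.

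Most regions near peptide genes had low signals, as do most regions of the pooled list. Taking the highest pooled region per gene, the median signal was 20.4 (n = 19, order-statistic 95% interval 19.3 to 24.3), against 23.0 over the 3157 coding genes near a pooled region, a value inside that interval. The lowest signal in the pooled list is 18.8, so most of the 19 lay just above the floor of the list. By family the medians were 20.2 for 6 ins genes, 22.3 for 3 flp genes and 21.7 for 10 nlp genes. For the 4 genes on X the median was 23.9 and for the 15 on autosomes 20.4, with a range on X from 18.8 to 176. Over all coding genes near a pooled region these medians were 21.98 on X and 23.2 on autosomes. The first lies inside the range of the 4 peptide genes on X. The second lies inside the 95% interval of the 15 on autosomes (19.3 to 23.4), so no difference can be read in either class.

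Among the insulin-like genes, ins-39 stood far above the others. Its region, X 1344974 to 1345153, had a pooled signal of 176 and ranked 21 of the 6542 pooled regions and 16 of the 1179 on X. In replicate 1 the signal was 129.1 (rank 18) and in replicate 2 it was 46.7 (rank 33), with summits 2 bp apart. Both replicates therefore placed it near the top of their lists. The summit lay 647 bp upstream of the ins-39 start, and the next closest coding start, that of ttr-37, was 7893 bp away. Position alone links the region to ins-39. Of all coding genes near a pooled region, ins-39 had the tenth highest signal.

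The other insulin-like genes had signals near the floor of the pooled list. The highest was ins-14 at 21.8, 300 bp upstream of its start, followed by its neighbour ins-15 at 20.4, 260 bp upstream. These adjacent genes of chromosome II lie on the same strand, each with a region of its own. The replicates split them. The ins-14 region had a match within 150 bp in replicate 2 (signal 15.4, rank 731) and none in replicate 1, and the ins-15 region had one in replicate 1 (19.5, rank 1350) and none in replicate 2. The remaining 3 were ins-23 on III (20.1, upstream by 424 bp), ins-24 on I (19.1, 530 bp downstream) and ins-17 on III (18.8, upstream by 167 bp). The ins-23 region was matched in replicate 2 alone, that of ins-17 in replicate 1 alone and that of ins-24 in neither.

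Many ins genes sit in arrays, and the genes near a pooled region were counted in each (15.8% of all coding genes). With 2 to 7 genes per array, no difference between arrays or from that share can be read. The pair ins-15 and ins-14 had 2 of 2, as described above. The array ins-28, ins-29, ins-25, ins-27, ins-24, ins-30 and ins-26 on I (14012369 to 14037777) had 1 of 7 genes near a pooled region. That of ins-2 to ins-6 on II (5988524 to 6001009) had 0 of 5, with 2 near a replicate 1 region, 2 near a replicate 2 region and none near both. Over all coding genes these shares were 50.3%, 49.3% and 28.8%. The replicate 1 region was the same for its 2 genes, ins-4 and ins-5. The genes ins-21 to ins-23 on III had 1 of 3, and the 3 other ins arrays (ins-19 with ins-31, ins-11 to ins-13, and ins-7 with ins-8) had none. Over the 11 arrays of peptide genes with starts no more than 10000 bp apart, a spacing chosen after the lists were seen, 8 of 39 genes (20.5%) were near a pooled region, and outside arrays 11 of 101 (10.9%), on either side of the share of all genes.

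Among the FMRFamide-like genes, flp-14 on III had the highest pooled signal, 24.3 (rank 2014), 254 bp upstream of the start. Replicate 1 placed a summit 25 bp from it (19.9, rank 1228), and replicate 2 had no region within 1000 bp of the start. For flp-18 on X, whose peptides are ligands of the receptors NPR-4 and NPR-5, the signal was 22.3 at 232 bp downstream of the start, in an intron of the gene. Replicate 1 matched it (15.8, rank 3468), and the replicate 2 region in reach was weak and elsewhere (5.63, rank 24562). The third was flp-16 on II at 19, 249 bp upstream, again matched in replicate 1 (12.8, rank 8106) and not in replicate 2. All 3 flp regions were matched by replicate 1 alone. Of the pooled regions near any coding start, replicate 1 matched 87.6% and both replicates 54.5%. With 3 regions no difference from these shares can be read.

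Among the neuropeptide-like genes, nlp-24 on V was the other gene near an IDR region. Its signal of 43.6 ranked 333 of the 350 IDR regions, close to the lowest of that list. Replicate 1 gave 34.2 at the same summit (rank 232) and replicate 2 gave 13.7 at 142 bp from it (rank 1328). The summit was 680 bp past the start of nlp-24, beyond the 3′ end of this short gene and inside a coding exon of glb-15, a globin gene on the opposite strand whose start was 1217 bp away.

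Next came nlp-27 on V with 28.9 (rank 969), 31 bp past the start and in the 5′ UTR. Here the replicates differed in the other direction, with 11.1 in replicate 1 (rank 13281) and 18.9 in replicate 2 (rank 307). This gene and nlp-34 (20.4, 99 bp past the start) are the ends of the nlp-29 cluster of antimicrobial peptide genes (V 3978825 to 3989770). Of the 6 genes there, nlp-27 and nlp-34 were near pooled regions, all 6 near a replicate 1 region, 5 near a replicate 2 region and 5 near both. Over all coding genes those shares were 15.8% for the pooled list, 50.3% and 49.3% for the replicate lists and 28.8% for both, and with 6 neighbouring genes no difference from them can be read. For the namesake of the cluster, nlp-29, these were a signal of 13.9 in replicate 1 (rank 5781) and 6.83 in replicate 2 (rank 16383), with no pooled region in reach.

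The other nlp regions spread from nlp-14 on X at 25.5, in an intron of this orcokinin-like gene 547 bp past its start, down to nlp-23 on X at 18.8. The nlp-14 region was matched in both replicates (16.7, rank 2654, and 7.86, rank 11273). So was that of nlp-4 on I (23.4, upstream by 78 bp, with 9.75 at rank 18969 and 11.3 at rank 3059), but the start of exos-3, an exosome subunit gene on the other strand, lay 246 bp from that summit. The region of nlp-9 on V (23.0, upstream by 944 bp) was matched in replicate 2 alone. Those of nlp-60 (20.02), nlp-18 (19.3) and nlp-25 (19.3) were matched in replicate 1, with nlp-60 also matched in replicate 2 (7.44, rank 13150). Of the highest summits per gene, that of nlp-18, at 964 bp, was closest to the edge of the window from inside. A second nlp-18 region had its summit at 748 bp. By nearest summit the closest from inside was nlp-9, at 944 bp. From outside the closest was nlp-31, at 1020 bp from the summit near nlp-34.

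In 12 of the 19 genes the highest summit was upstream of the start (63.2%, against 66.7% of the 3157 coding genes near a pooled region). The median position was -167 bp, against -169 bp over those genes. For 8 (42.1%, against 37.6%) the summit was over 500 bp away. By annotation 12 summits were intergenic, 5 in introns, 1 in a coding exon and 1 in a 5′ UTR. These classes were not counted over all coding genes. All 19 were the closest coding start to their summit, and in 3 cases another coding start was also within 1000 bp of it. Counting regions for their closest coding start alone left 13.6% of peptide genes near a pooled region, against 13% of all coding genes. The difference from other genes was then 0.573 percentage points (Newcombe interval -4.16 to 7.24).

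**Figure D2:**
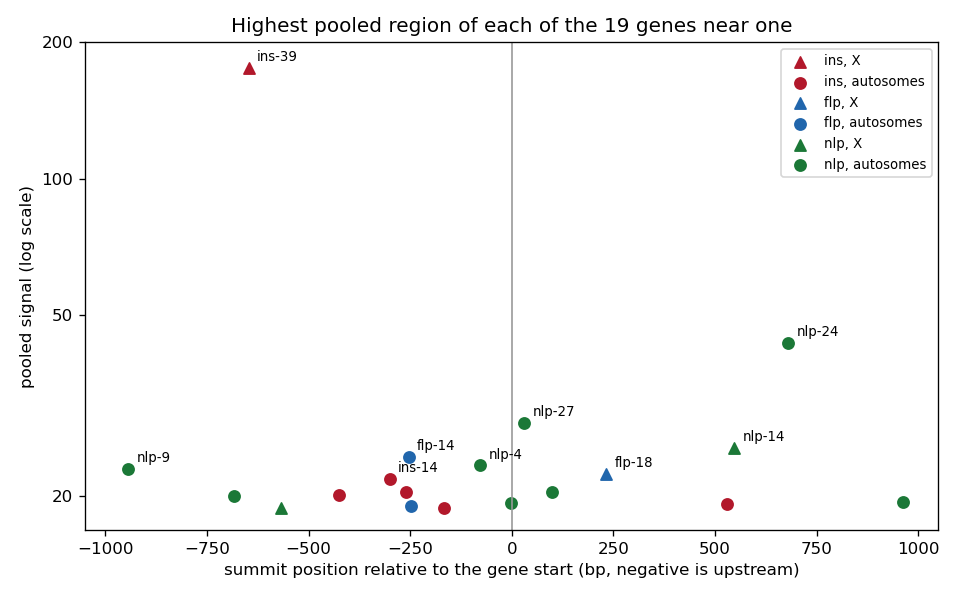
Pooled signal (vertical, log scale) of the highest region of each of the 19 peptide genes near one, against the position of its summit relative to the gene start in bp (horizontal, negative is upstream). Colours are families and triangles are genes on X. The point of ins-39, at 176 and -647 bp, stands above nlp-24 at 43.6, and the other 17 lie below 30.

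Not all pooled regions near peptide genes had a match in both replicates. Of 21 pooled regions near them, 8 (38.1%) had a summit within 150 bp in both replicate lists, against 54.5% of the 2763 pooled regions near any coding start. Replicate 1 matched 76.2% (against 87.6%) and replicate 2 matched 57.1% (against 65.2%). The share at equal signal was not determined and no intervals were computed. With 21 regions, no difference from the regions near any coding start is read from these shares. Of the 43 genes near regions of both replicates, ins-39 alone had a region among the first 1000 of each, and this share over all genes was not determined. In the first 350 of replicate 1 were ins-39 and nlp-24, and in those of replicate 2 ins-39 and nlp-27. Each is 2 of 140 genes, close to the share of all coding genes (1.65% in replicate 1 and 1.54% in replicate 2).

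**Figure D3:**
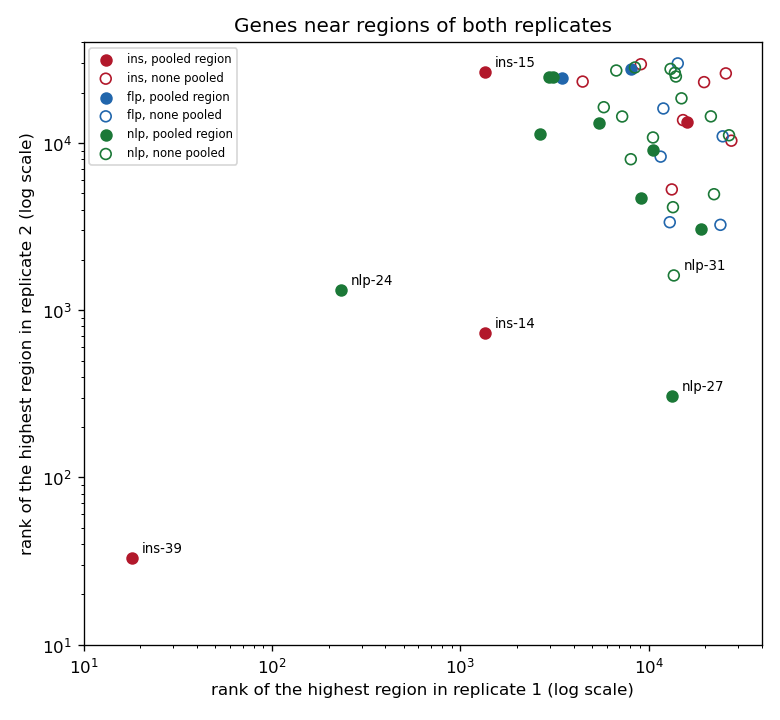
Rank of the highest region within 1000 bp of the start in replicate 1 (horizontal) and replicate 2 (vertical), both on log scales, for the 43 peptide genes near regions of both. Filled points also have a pooled region and colours are families. ins-39 lies at ranks 18 and 33, and 37 of the 43 points lie beyond rank 2000 in both lists.

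The ins-39 region contains the 8 bases GCGCAGGG beside its summit, read on the strand opposite to the gene (the capitals in the ins-39 stretch above). These bases lie within the MEX motif, known from sites on X that recruit the dosage compensation complex, which lowers expression from both X chromosomes of hermaphrodites. The motif was chosen after the strong X regions had been seen. Of all 6542 pooled regions, 19 (0.290%) held these bases within 100 bp of the summit. On X they were in 18 of 1179 regions (1.53%) and on autosomes in 1 of 5363 (0.0186%). Among the 25 highest regions of X they were in 12 (48.0%), ins-39 included, and in 6 of the other 1154 (0.520%). The 1 autosomal region with these bases was among the 25 highest of the autosomes (4%). The median signal on X was 186 with them and 21.8 without, and the highest region without them reached 385. A match describes the bases and does not show which protein was there, and binding of the dosage compensation complex was not analysed here. None of the other pooled regions near peptide genes held these bases, and neither did the 301 bp around any of the 140 starts (21 of all 19973 starts, 0.105%).

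**Figure D4:**
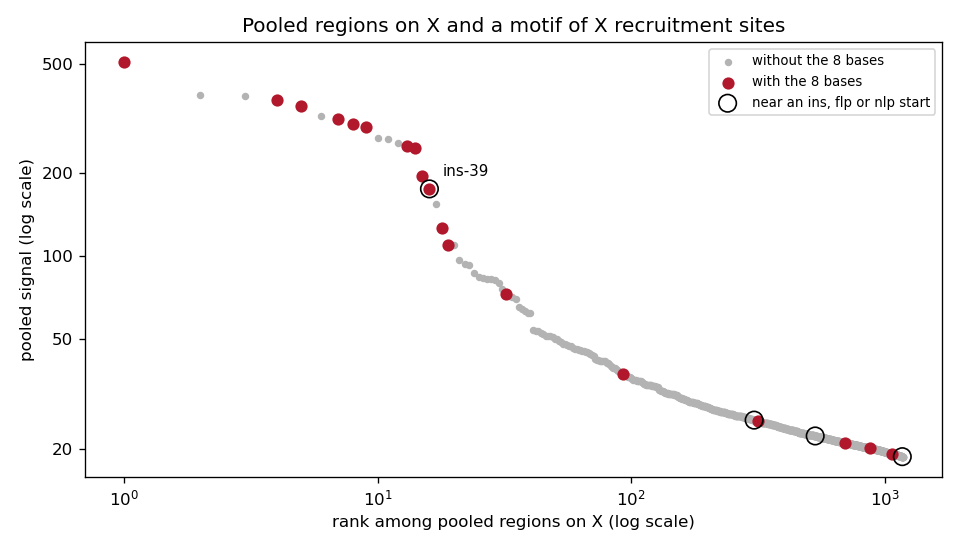
Pooled signal (vertical, log scale) of the 1179 pooled regions on X by their rank on X (horizontal, log scale). Red points hold the 8 bases of the X recruitment motif within 100 bp of the summit and open circles are regions near a peptide gene. The ins-39 region, rank 16, is among the red points at the top, and the other 3 circles lie below a signal of 30 and are not red.

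The promoters of the peptide genes, regardless of regions, held 1 of the motifs searched more often than other promoters. This comparison was chosen after the motif counts had been seen. CCGCCC, a KLF/SP type motif, was present on either strand within 250 bp before to 50 bp after the start in 42 of 140 genes (30.0%, exact interval 22.6 to 38.3), against 7.87% of all coding genes. It was found in 20 of 38 ins genes (52.6%, interval 35.8 to 69.0), 5 of 31 flp genes (16.1%, 5.45 to 33.7) and 17 of 71 nlp genes (23.9%, 14.6 to 35.5). On X it was in 8 of 34 (23.5%) and on autosomes in 34 of 106 (32.1%). Genes of an array can share sequence through duplication, and its part in these shares was not tested. Among the ins genes the motif was in 11 of 24 in arrays (45.8%) and in 9 of 14 outside them (64.3%). The median GC content of these windows was 36.9% for the peptide genes and 35.7% for the ins genes, against 34.2% for all coding genes, and its part in the difference was not tested.

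Genes with and without the motif were near regions about equally often. Of the 42 genes with it, 6 (14.3%) were near a pooled region, and of the 98 without it 13 (13.3%). Over all coding genes these shares were 16.4% and 15.8%. Beneath the summits themselves, 3 of the 21 pooled regions near peptide genes held CCGCCC (14.3%, against 6.04% of those near any coding start). No interval was computed, and no difference is read from these 3 regions. They are 1 of each family, and the 30 bases around each match, on the strand of the gene, are shown with the motif in capitals to compare what surrounds it. The positions are chrII:13235039-13235068 for flp-16 (plus strand), chrIII:4477674-4477703 for ins-17 (minus strand) and chrV:3978979-3979008 for nlp-34 (minus strand).
flp-16: ctctgttagactCCGCCCtcccccgtctct
ins-17: tgtgttcaaactCCGCCCattttgcaaaat
nlp-34: tttcgattcagaCCGCCCgtacggatacgg
These 3 regions were weak, with pooled signals of 19 (flp-16), 18.8 (ins-17) and 20.4 (nlp-34).

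**Figure D5:**
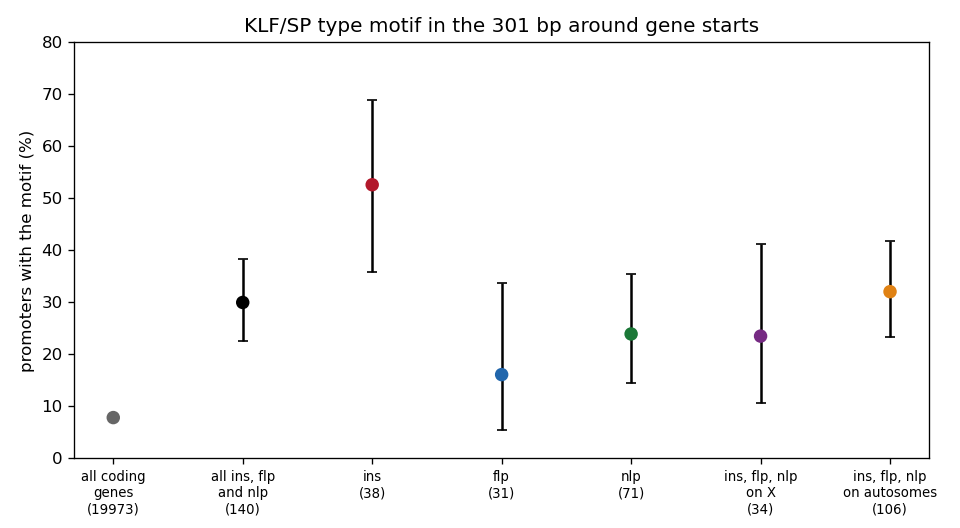
Percent of genes with the KLF/SP type motif in the 301 bp around the start (vertical axis), with exact 95% intervals and the number of genes in parentheses. The ins genes are highest at 52.6%, flp genes stand at 16.1% and nlp genes at 23.9%, against 7.87% of all coding genes.

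The other motifs were counted in the same promoters. TGATAA, the GATA factor motif, was in 25% of them against 30.3% of all, and the families lay on either side of that share. It was in 16 of 38 ins promoters (42.1%), 5 of 31 flp promoters (16.1%) and 14 of 71 nlp promoters (19.7%). It was also in 4 of their 21 pooled regions (19%, against 15.5% near any start). AGGTCA, an element of nuclear receptor sites, was in 11.4% of promoters against 8.29%, and AGTTCA in 25.7% against 20.4% (31.6% of ins, 19.4% of flp and 25.4% of nlp promoters). GAGAGAG (5.71% against 6.79%) and AGTGCA (8.57% against 9.66%) lay close to the share of all genes. The median GC content in the 201 bp around the summits was 33.3% for the 21 regions and 35.8% for all 2763 near starts.

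Genes that make, sense or relay these peptides were counted in the same way. Of 32 matched genes for peptide processing and dense core vesicles, 8 (25%, exact interval 11.5 to 43.4) were near a pooled region, against the 15.8% of all genes. The highest were cab-1 on X (28.7), unc-108 on I, a RAB2 gene of vesicle maturation (23.3), ida-1 on III, a vesicle membrane protein gene (23.3), and snb-1 on V for synaptobrevin (21.7). None of these 32 was near an IDR region. Of 65 peptide receptor genes, 5 (7.69%, 2.54 to 17) were near a pooled region. They were led by npr-2 (24.7), the FMRFamide receptor-related gene frpr-15 (24.6), npr-4 (24.5), the receptor for flp-18 peptides named above, and sprr-1 (23.3). All intervals include the background.

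Of 23 genes of insulin signalling, 7 (30.4%, interval 13.2 to 52.9) were near a pooled region, against 15.8% of all genes, a share inside that interval. The 14-3-3 gene ftt-2 on X, whose product binds DAF-16, had a signal of 83.2 (rank 78), with rank 73 in replicate 1 and 87 in replicate 2. Of all these pathway lists, ftt-2 was the single gene near an IDR region. That is 1 of the 23 (4.35%, interval 0.11 to 21.9), against 1.72% of all genes. By signal ftt-2 was followed by daf-15, the worm Raptor (36.5), par-5, the other 14-3-3 gene (27.9), and the kinase gene akt-2 (25.7). The receptor gene daf-2 had no pooled region in reach, and 1 region of replicate 1 at the edge of the window, 1000 bp past its start (8.79, rank 24154). Of 21 other peptide ligand genes 2 (9.52%, interval 1.17 to 30.4, which also includes 15.8%) were near a pooled region, the TGF-beta ligand gene tig-2 (21.4) and cnc-11 (20.2). For daf-28 there was no pooled region, and 1 in replicate 2 (8.27, rank 9690). The start of nhr-237 itself had no region of any list within 1000 bp.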

How the data were processed

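The authors deposited region lists in the narrowPeak layout in ce11 and ce10. Per the labels and the readme deposited with the samples, each list was made from the alignments of 1 or both libraries and a control alignment, and the IDR list from the pooled and replicate lists. For the peak caller, aligner and IDR threshold, nothing is given in the sources used here. The signal of a region was deposited by the authors and used as it stands, with summits from the peak offset. The ce10 lists were not used here. All region ends lay within the WBcel235 chromosome lengths. Gene models are from Ensembl release 115 and sequence is from RefSeq WBcel235.

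Each gene took the highest region with a summit within 1000 bp of its 5′ end, often a trans-splice site and not the transcription start. Shares have exact (Clopper-Pearson) and differences Newcombe 95% intervals. No test was made: there is 1 group, and genes are not replicates. The labels give 2 biological replicates. The genes, lists and motifs were chosen with earlier results of these data known. Named were genes near an IDR region, the 20 highest by pooled signal, the 3 highest per family on X and on autosomes, those closest to the window's edge, nhr-237, and up to 4 per pathway list. Genes named beyond this (ins-13, ins-37, nlp-12, nlp-29, daf-2, daf-28, genes listed as arrays or neighbours) were chosen after their values were seen. Assignment was tested on simulated regions. Calculations used Python 3.11.15, NumPy 2.4.6, pandas 2.3.3 and SciPy 1.17.1, with plots in matplotlib 3.10.9.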

Additional observations from a re-analysis of the deposited data

How the results depend on the processing

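The window sets the counts. Within 500 bp 11 peptide genes were near a pooled region, 18 near regions of both replicates and 0 near an IDR region. Within 2000 bp these were 37, 86 and 6. For the pooled list the shares were 7.86% against 10.1% of all genes within 500 bp and 26.4% against 25% within 2000 bp. For both replicates they were 12.9% against 13.7% and 61.4% against 54.5%, and for the IDR list 0% against 1.34% and 4.29% against 2.33%. With pooled regions above the median signal 8 genes remained in reach (5.71% against 9.25%, difference from other genes -3.56 percentage points, Newcombe interval -6.38 to 1.61), at a median signal of 24.9. With the replicate lists cut to the size of the pooled list 3 genes were near both (2.14% against 5.01%), with the size of the IDR list 1, and with summits within 150 bp of each other 20 (14.3% against 13%). Leaving out a replicate used the 6542 highest regions of the other replicate list. Without replicate 2 this gave 20 genes (14.3% against 15.7%) and a median signal of 15.6. Without replicate 1 it gave 22 genes (15.7% against 15%) and a median signal of 10.6, each median on the scale of the remaining list. The differences between families and between X and autosomes stayed within their main intervals under every alternative run, with changes of sign. X minus autosomes was 4.11 points above the median signal and 4.44 without replicate 2, flp minus nlp 4.04 within 500 bp, and above the median signal ins minus flp was -3.82 and ins minus nlp -4.41. No paired analysis was possible because the libraries form 1 group. Unknown depth limits what an absent region means.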

Other observations

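A few peptide genes lie just outside the window of an IDR region. At ins-13 on II, a region at 5543530 to 5543905 with a pooled signal of 111 (rank 35) had its summit 1146 bp past the start, in intergenic sequence beyond the 3′ end. It was high in both replicates (89.4 at rank 29 and 32.8 at rank 65), and ins-13 was the closest coding start. The other 3 had a closer gene. The region 1891 bp from ins-17 (signal 114, rank 34) was nearest to rps-1, a ribosomal protein gene. That at 1300 bp from nlp-12 (52.7, rank 213) was 361 bp from emr-1, the emerin gene, and that at 1562 bp from ins-37 (56.3, rank 187) was 914 bp from F08G2.5.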
